A study of Mus musculus with 4 samples.

Results

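The genes described here are 47 members of the WNT pathway: 19 Wnt ligands, 10 Frizzled receptors, the 2 Lrp co-receptors Lrp5 and Lrp6, 8 secreted antagonists (the Sfrp and Dkk families), 4 Tcf/Lef transcription factors and 4 feedback genes (Axin2, Sp5, Nkd1 and Notum). They were chosen by family, with earlier results of these data known, and matched to the array by gene symbol. The array names 19057 genes through probes of a single symbol. Of the 47 members, 46 are among them, with 87 probes, and Tcf7 was not analysed here. RNA came from E14, an established line of mouse embryonic stem cells grown with serum and LIF, a cytokine that keeps such cells undifferentiated. The treated cells received ATRA, all-trans retinoic acid, the ligand of the retinoic acid receptors, for 2 hours (2 arrays). The control cells received DMSO, the solvent, for 2 hours (2 arrays). The treatment label names DMSO, while the source label of the same arrays reads as untreated and their titles read as wild type. No genotype change or further agent is labelled in either group. The labels state no ATRA dose, nor whether replicates were separate cultures.

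WNT proteins are lipid-modified secreted ligands. They bind a Frizzled receptor together with Lrp5 or Lrp6, which stops a destruction complex built on the Axin proteins from degrading beta-catenin. Beta-catenin then joins Tcf/Lef factors on DNA and turns on targets that include the pathway's own inhibitors. In mouse embryonic stem cells the pathway is known to favour self-renewal, largely by relieving repression by Tcf7l1, and in the embryo WNT and retinoic acid signals meet in the posterior epiblast and tail bud.

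Each array carried 45281 probes read in a single colour. Between 40.1% and 42.3% of the probes were detected per array, meaning a detection p under 0.05. Values below are log2 intensities after background correction, and the lowest detected value was 4.77 to 4.86 on this scale. Probes detected on at least 2 of the 4 arrays were kept and tested with limma, with Benjamini-Hochberg adjustment over all 19112 kept probes. A gene passed when its brightest kept probe had an adjusted p under 0.05. Signals of different probes were not set against each other as levels. The treatment was visible in Cyp26a1, the gene of a retinoic acid hydroxylase: it had 6.99 and 6.83 on the ATRA arrays, against 4.78 and 5.07 on the DMSO arrays (adjusted p = 2.6e-09). All 8 pluripotency markers examined were detected on all 4 arrays, and Pou5f1 averaged 12.22 ± 0.04 with ATRA and 12.19 ± 0.13 with DMSO (SD, n = 2 each). Of the 8, Zfp42 and Sox2 fell (changes of -0.40 and -0.39, limma adjusted p = 0.0041 and 0.019), against 0.363% of all 10194 measured genes that fell. Of 12 alternative settings, Zfp42 passed in 10 and Sox2 in 9. The losses included the fit without ATRA replicate 1 for both, and that without ATRA replicate 2 for Sox2. Of 8 primitive endoderm markers 3 were kept. Gata6 was higher with ATRA and passed (limma adjusted p = 0.027), against 1.46% of all measured genes that rose. It passed in 8 of 12 alternative settings. Its losses included no filter on dim probes (adjusted p = 0.080) and the fits without ATRA replicate 1 or DMSO replicate 1. Dab2 was at -0.27 and Sox7 at 0.12 without passing. The streak markers Mixl1, Eomes, Mesp1, Gsc and Tbx6 had no kept probe, so 0 of 5 were tested. T, a further streak marker on the list, was not analysed here. In such bulk samples, fewer cells of a type and less RNA per cell cannot be told apart.

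About as many WNT genes were undetected as were measured. Of the 46 genes on the array, 22 were kept, through 38 probes; 23 were detected on no array, and Wnt4 was detected on 1 ATRA array only. With ATRA, the ligand gene Wnt8a and the receptor gene Fzd7 rose, and the feedback gene Sp5, the antagonist gene Sfrp1 and the ligand gene Wnt5a fell. These 2 rises and 3 falls among 22 kept members stand beside 1.46% of all 10194 measured genes that rose and 0.363% that fell, 1.82% in all. Wnt8a was kept only through the ATRA arrays, so the filter favoured a difference there; with no filter its brighter probe did not pass (adjusted p = 0.10) and its dimmer probe did (0.018). The other 17 kept members did not pass. The median change of the kept members was -0.0093, and that of all measured genes was -0.0043. Counting any kept probe of a gene, 6 members passed, against 2.18% of all measured genes. By probe, 3 of the 38 rose and 4 fell, against 1.26% and 0.324% of all kept probes. Among the kept members 11 were lower with ATRA and 11 were higher. The arrays of both groups did not overlap for 12 of the 22, against 41.2% of all measured genes: 6 lay higher with ATRA, against 20.2%, and 6 lower, against 21.0%.

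**Figure D1:**
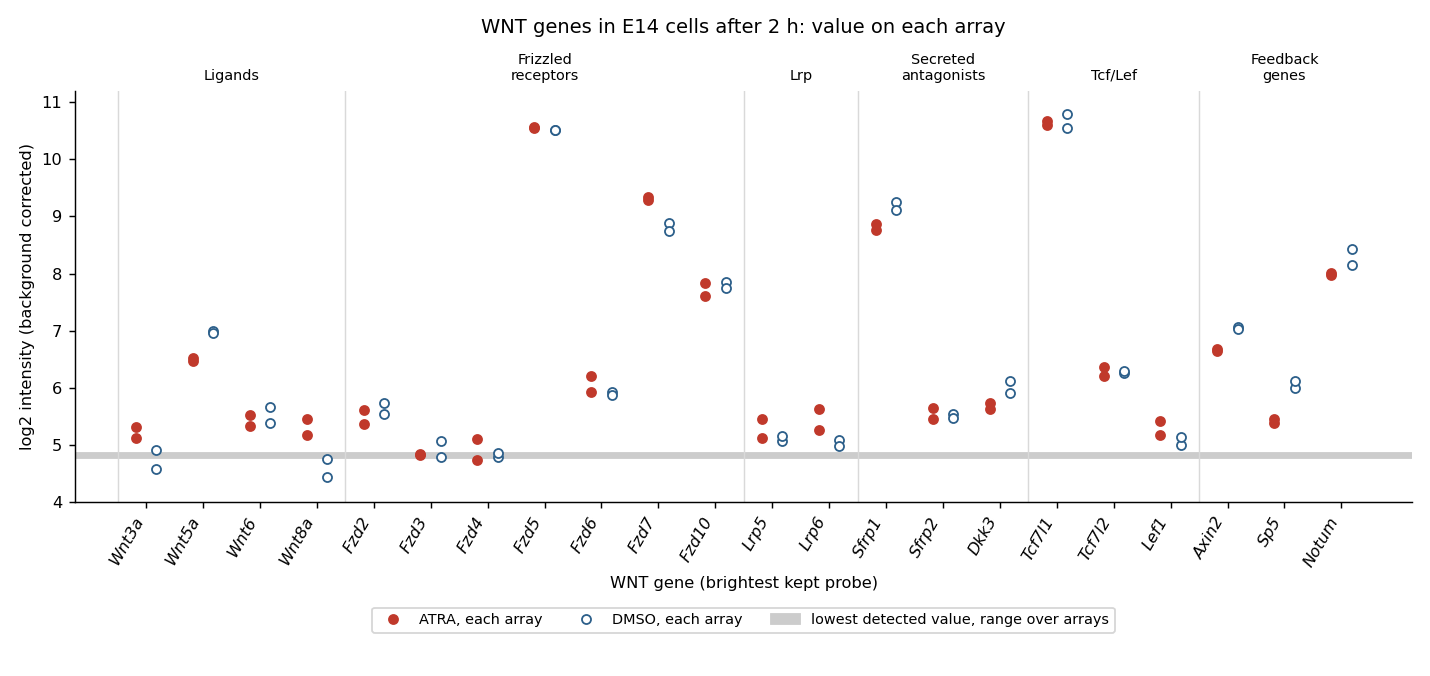
Log2 intensity of the brightest kept probe of each of 22 WNT genes (vertical axis) on each of the 2 ATRA arrays (filled) and 2 DMSO arrays (open), in E14 cells after 2 h. The grey band is the lowest detected value, 4.77 to 4.86; Wnt8a lies above the band only with ATRA, and Sp5, Axin2 and Notum lie lower on both ATRA arrays.

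Among the ligands, Wnt8a, a gene of the posterior epiblast and streak of the mouse embryo, was detected on both ATRA arrays and on neither DMSO array. Its brightest probe had 5.44 and 5.17 on the ATRA arrays, against 4.75 and 4.43 on the DMSO arrays. Both ATRA values were detected and both DMSO values were not, so the difference is given as a bound. On this scale the ATRA mean was at least 1.43-fold higher. The limma fit itself was made against the undetected DMSO values (over kept probes, adjusted p = 0.039). The bound depends on the background setting, as does the fitted change. That change was 0.72 here, 0.24 with no background correction and 0.34 with an offset of 50. A further probe of the same annotated transcript had 5.43 and 5.15 with ATRA, against 4.51 and 4.38 with DMSO. On the same scale it was at least 1.41-fold higher with ATRA (limma fit against the undetected values, adjusted p = 0.011). The groups do not overlap on either probe, while the remaining Wnt8a probe was detected on 0 of 4 arrays. Neither probe was kept when an ATRA array was left out. The dimmer probe passed in the other settings. In all of these but the one with no filter, it was tested only because both ATRA arrays detected it. The filter favoured a difference there. The brighter one missed the threshold when DMSO replicate 2 was dropped (adjusted p = 0.082), with no filter on dim probes (0.10), a stricter filter (0.066) or no intensity trend (0.11).

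Wnt5a, best known for signalling that does not use beta-catenin, moved the other way. Its brightest probe had 6.51 and 6.47 on the ATRA arrays, against 6.99 and 6.95 on the DMSO arrays. It fell by 0.48 (SE 0.11, adjusted p = 0.025), to 0.72 of the DMSO level. The replicates of each group lie close together and the gap between groups is wide. A dimmer Wnt5a probe pointed the same way without passing (change -0.28, adjusted p = 0.53). The call was lost without ATRA replicate 1 (adjusted p = 0.18), without ATRA replicate 2 (0.28), with no filter (0.055) and with no intensity trend (0.14), at changes of -0.46 to -0.49.

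Wnt3a, a ligand of the streak and tail bud that acts through beta-catenin, had 5.32 and 5.12 on the ATRA arrays, against 4.91 and 4.57 on the DMSO arrays. The groups do not overlap, and 1 of the 2 DMSO values was not detected. Its change of 0.48 did not pass (SE 0.18, adjusted p = 0.23). Wnt6, another ligand, had changes of -0.10, -0.31 and -0.31 on its 3 kept probes (adjusted p = 0.88, 0.47 and 0.54). The other 15 ligand genes had no kept probe. Of these, Wnt1, Wnt2, Wnt2b, Wnt3, Wnt5b, Wnt7a, Wnt7b, Wnt8b, Wnt9a, Wnt9b, Wnt10a, Wnt10b, Wnt11 and Wnt16 were detected on 0 of 4 arrays by every probe named for them.

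Among the 7 kept Frizzled receptors, Fzd7 was the 1 to rise, against 1.46% of all measured genes that rose. Fzd7 is a Frizzled receptor known for its expression in pluripotent stem cells. It had 9.34 and 9.29 on the ATRA arrays, against 8.89 and 8.74 on the DMSO arrays. The groups do not overlap, and the gap is wider than the spread of either group. The change was 1.41-fold (95% interval 1.24 to 1.61, adjusted p = 0.0025). It was the 1 member call that stayed without ATRA replicate 2. It missed the threshold without ATRA replicate 1 (change 0.47, adjusted p = 0.063) and with no intensity trend (0.14). Over the alternative settings its change ranged from 0.42 to 0.57.

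Fzd5 gave different answers by probe. All 4 of its probes are annotated to a single transcript. The brightest had 10.55 and 10.58 on the ATRA arrays, against 10.52 and 10.52 on the DMSO arrays, a change of 0.04 that did not pass (95% interval -0.12 to 0.20, adjusted p = 0.91). The next probe had 7.32 and 7.55 with ATRA, against 7.95 and 7.88 with DMSO. It fell by 0.48 (SE 0.11, adjusted p = 0.014), without overlap between the groups. The third kept probe was at -0.37 (adjusted p = 0.28), and the remaining probe was not detected. Fzd5 is therefore not counted among the 5 members that passed, and the direction of its transcript depends on the probe read. The fall of the middle probe was lost without ATRA replicate 1 (adjusted p = 0.46) and with no intensity trend (0.17).

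The other Frizzled genes did not pass. Fzd10 was at -0.08 by its brightest probe, at -0.43 by a dimmer probe that did not overlap between groups (adjusted p = 0.14) and at -0.03 by the dimmest. Fzd6, a receptor of planar cell polarity, was at 0.17 and -0.13 on its 2 probes (adjusted p = 0.71 and 0.84). Fzd2 was at -0.15, and Fzd3, also a polarity receptor, was at -0.10 by its brighter probe, with 1 of 2 ATRA values detected. Fzd4, known as the receptor of the non-WNT ligand Norrin, was at 0.10. Fzd1, Fzd8 and Fzd9 were detected on no array. Among the 12 members with several kept probes, 10 had all of them pointing the same way; Fzd5 and Fzd6 did not.

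Of the co-receptors, Lrp6 had 5.63 and 5.25 on the ATRA arrays, against 5.08 and 4.97 on the DMSO arrays. The groups do not overlap but the ATRA arrays differ from each other by more than the gap, and the change of 0.41 did not pass (SE 0.17, adjusted p = 0.30). Its other probe was at 0.04. Lrp5 was at 0.18 by its 1 kept probe (adjusted p = 0.76).

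**Figure D2:**
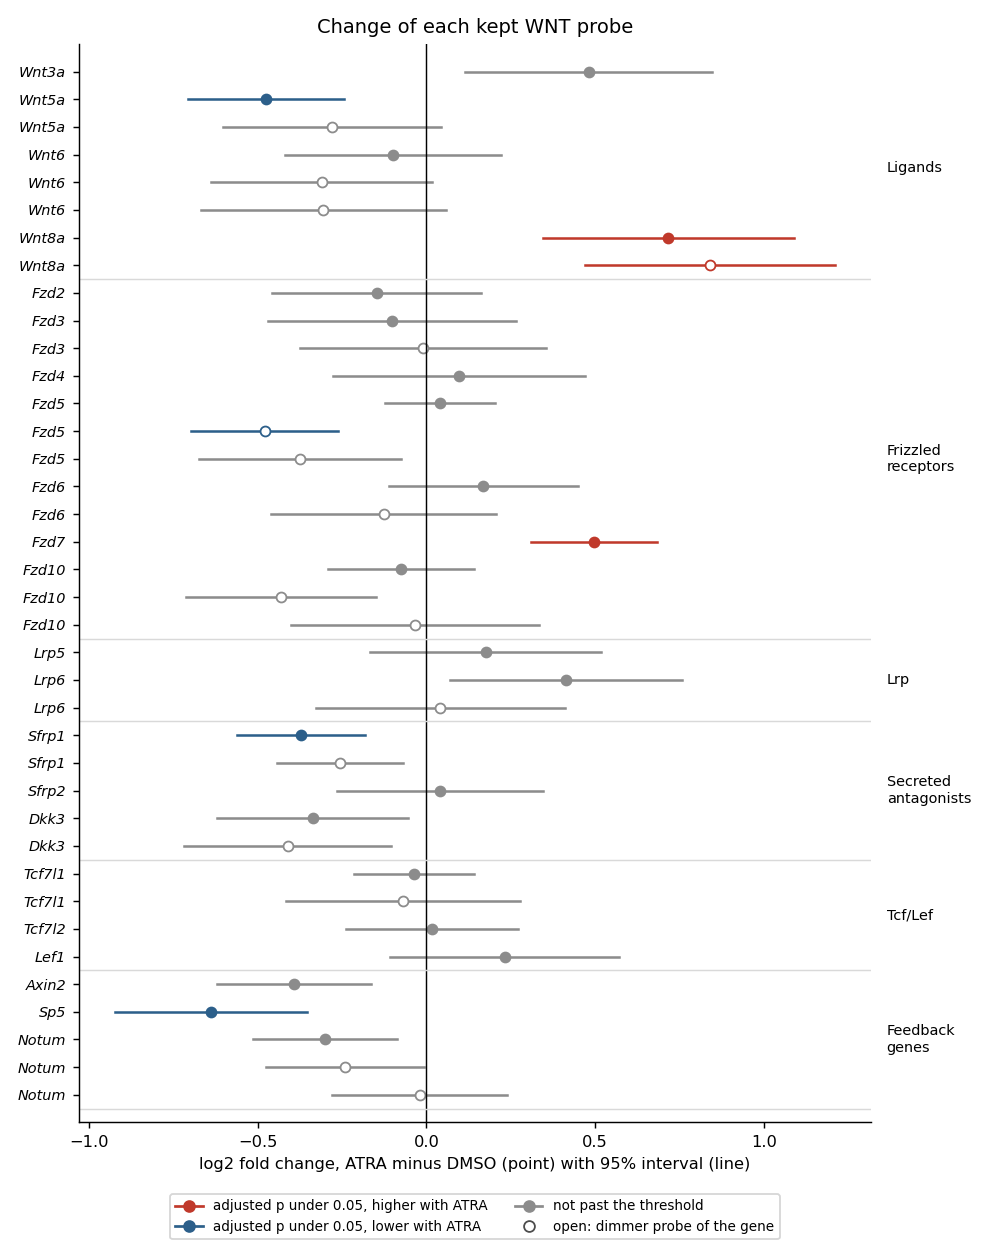
Log2 fold change, ATRA minus DMSO (horizontal axis), with its 95% interval for each of the 38 kept probes of 22 WNT genes, grouped by role; filled points are the brightest probe of a gene and open points the dimmer ones. Coloured probes passed the threshold: 3 were higher with ATRA (Wnt8a on both its kept probes, and Fzd7) and 4 were lower (Wnt5a, a dimmer Fzd5 probe, Sfrp1 and Sp5). The Wnt8a points are fitted against undetected DMSO values and are no measure of size.

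Of 8 secreted antagonists 3 were kept and 1, Sfrp1, fell, against 0.363% of all measured genes that fell. Sfrp1 encodes a decoy that resembles the ligand-binding part of Frizzled receptors. It had 8.86 and 8.76 on the ATRA arrays, against 9.25 and 9.11 on the DMSO arrays. Both ATRA values are below both DMSO values, by a margin somewhat wider than the spread of either group. It fell by 0.37 (SE 0.09, adjusted p = 0.033), to 0.77 of the DMSO level. Its other probe had 8.51 and 8.52 with ATRA, against 8.76 and 8.78 with DMSO, a change of -0.26 without passing (adjusted p = 0.20). The fall of Sfrp1 was not called without ATRA replicate 1 (adjusted p = 0.13), ATRA replicate 2 (0.50) or DMSO replicate 1 (0.073), nor with no intensity trend (0.27).

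Dkk3, a divergent member of the Dickkopf family, had 5.62 and 5.73 on the ATRA arrays, against 6.12 and 5.91 on the DMSO arrays. The groups do not overlap, but the change of -0.34 did not pass (SE 0.14, adjusted p = 0.31), nor did the -0.41 of its other kept probe (adjusted p = 0.22). Sfrp2, another Frizzled-like decoy, was at 0.04 (adjusted p = 0.96). Dkk1, Dkk2 and Dkk4, of which Dkk1 is a classical inhibitor of Lrp6, were detected on no array, as were Sfrp4 and Sfrp5. Wnt5a, Sfrp1 and Dkk3 are also made by fibroblasts, so fibroblast markers were read beside them. Of 8 such markers, Acta2, Thy1, Col1a1 and Col3a1 were kept and 0 passed, while Col1a2, Dcn, Lum and Postn were detected on no array. The summed deposited intensity of the list was 5443.4 to 5483 with ATRA and 5489.7 to 6168.8 with DMSO. Most of that sum was Acta2, at 4695 and 4682 on the ATRA arrays and 5393 and 4711 on the DMSO arrays. The part of fibroblasts in these results was not tested.

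The Tcf/Lef factors showed no call. Tcf7l1, the factor known to dominate in mouse embryonic stem cells and to act there as a repressor, had 10.67 and 10.61 on the ATRA arrays, against 10.79 and 10.56 on the DMSO arrays. The groups overlap, and the change of -0.04 had a 95% interval of -0.21 to 0.14 (adjusted p = 0.93). Tcf7l2 was at 0.02 (95% interval -0.24 to 0.27, adjusted p = 0.98). Lef1, an activating factor, had 5.17 and 5.42 with ATRA, against 4.99 and 5.14 with DMSO. Its groups just fail to overlap, and the change of 0.23 did not pass (SE 0.16, adjusted p = 0.65).

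Of the 3 kept feedback genes Sp5 fell, against 0.363% of all measured genes, and Axin2 and Notum did not pass. All 3 were lower with ATRA without overlap between the groups, which holds for 21.0% of all measured genes. Sp5, a zinc finger factor of the Sp family induced by beta-catenin, had 5.44 and 5.39 on the ATRA arrays, against 5.99 and 6.11 on the DMSO arrays. The gap is several times the spread of either group. It fell by 0.64 (SE 0.14, adjusted p = 0.012), to 0.64 of the DMSO level (95% interval 0.53 to 0.78). The call was lost without ATRA replicate 1 (adjusted p = 0.070), without ATRA replicate 2 (0.13) and with no intensity trend (0.063). With no background correction the change was -0.26 and with an offset of 50 it was -0.39, and both passed.

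Axin2, a scaffold of the destruction complex and a widely used readout of beta-catenin, had 6.64 and 6.67 on the ATRA arrays, against 7.07 and 7.03 on the DMSO arrays. Replicates lie close together (SD 0.02 in each group) and the groups are well apart. The change of -0.39 missed the threshold over all probes (limma SE 0.11, adjusted p = 0.081). That SE is moderated: limma draws the variance of each probe toward that of probes of like intensity. Leaving out DMSO replicate 2 gave a change of -0.41. Notum, an enzyme that removes the lipid from WNT proteins, had 7.97 and 8.01 with ATRA, against 8.43 and 8.15 with DMSO. Both ATRA values are below both DMSO values, with more spread in DMSO. Its change of -0.30 did not pass (SE 0.10, adjusted p = 0.19), nor did those of -0.24 and -0.02 on its dimmer probes. Without DMSO replicate 2, Notum was at -0.44. Nkd1, which binds Dishevelled, was detected on no array. In the same samples Otx2, an epiblast and anterior neural factor, averaged 6.92 ± 0.11 with ATRA and 8.75 ± 0.06 with DMSO (SD, n = 2 each; limma adjusted p = 4.4e-11). The part of this in the feedback genes was not tested.

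The upstream DNA of the feedback genes Sp5 and Axin2 and of Fzd7 is shown because Fzd7 rose while Sp5 fell and Axin2 lay lower with ATRA. Each line gives the 250 bases before the RefSeq start, on the gene's strand, in build GRCm38.p6. Capitals mark CTTTGAT, one of a pair of Tcf/Lef core sequences searched on both strands, the other being CTTTGAA.
Sp5, chr2:70474673-70474922, plus strand: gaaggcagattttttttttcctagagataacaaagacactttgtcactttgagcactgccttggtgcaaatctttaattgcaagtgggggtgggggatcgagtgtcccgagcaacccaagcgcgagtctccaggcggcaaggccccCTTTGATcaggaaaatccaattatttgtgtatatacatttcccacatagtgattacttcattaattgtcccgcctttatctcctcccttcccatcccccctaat
Axin2, chr11:108920099-108920348, plus strand: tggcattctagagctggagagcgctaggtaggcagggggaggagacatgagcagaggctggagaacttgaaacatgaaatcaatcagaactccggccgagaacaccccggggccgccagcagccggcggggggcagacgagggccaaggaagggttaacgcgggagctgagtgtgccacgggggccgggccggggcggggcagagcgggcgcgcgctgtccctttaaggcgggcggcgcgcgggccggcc
Fzd7, chr1:59481897-59482146, plus strand: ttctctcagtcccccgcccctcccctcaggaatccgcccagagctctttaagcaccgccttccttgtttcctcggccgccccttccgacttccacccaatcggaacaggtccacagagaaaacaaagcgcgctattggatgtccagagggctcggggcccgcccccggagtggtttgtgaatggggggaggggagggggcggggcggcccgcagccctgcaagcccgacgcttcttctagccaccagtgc
Sp5 held CTTTGAT once, starting 104 bases before the gene's start on the coding strand; 3.21% of all 32851 promoters hold that sequence in the same window and 4.46% hold CTTTGAA. None of the windows of these 3 genes held AGTTCA, a half-site of the retinoic acid receptor found in 11.8% of all promoters. Nor did they hold a direct repeat of receptor half-sites spaced by 1, 2 or 5 bases, where a half-site could be AGGTCA or else AGTTCA, and also GGGTCA or else GGTTCA. Such repeats were found in 0.164%, 0.174% and 0.0883% of all promoters. A match is a string of letters and no match says only that these letters are not in the window.

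Beyond these families, 81 further genes of the pathway were listed by role, also with earlier results known, and 52 were kept. T and Dact3, both on that list, were not analysed here. Porcn, Csnk1e, Tle6 and Cdx1 rose and Id2 and Evx1 fell, so that 6 of 52 passed, against 1.82% of all measured genes. The list's median change was 0.0059, beside -0.0043 for all measured genes. Porcn encodes the acyltransferase that attaches the lipid to WNT proteins. It had 9.11 and 9.14 on the ATRA arrays, against 8.72 and 8.62 on the DMSO arrays, a rise of 0.45 (SE 0.09, adjusted p = 0.0056). The groups are far apart, and the dimmer Porcn probe was at 0.38 without passing (adjusted p = 0.16). Wls, the carrier of WNT proteins to the cell surface, was at -0.11 by its brightest probe.

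Downstream of the receptors, 10 of 12 genes of the destruction complex and its regulators were kept. Of these 1 passed, against 1.82% of all measured genes. Csnk1e, a casein kinase that phosphorylates Dishevelled and other pathway proteins, had 9.85 and 9.86 with ATRA, against 9.48 and 9.50 with DMSO. It rose by 0.36 (SE 0.08, adjusted p = 0.021), and its other probe rose by 0.46 (adjusted p = 0.013). Tnks2, a tankyrase that promotes Axin turnover, was next in size at 0.24 (adjusted p = 0.20). The 4 kept Dishevelled and inhibitor genes had changes of -0.04 to -0.02, with Dvl1 and Dvl2 at -0.04 and -0.03. Of 5 kept genes for other co-receptors and surface partners, 0 passed, with Ptk7 at 0.26 and Kremen1 at -0.16 (adjusted p = 0.41 and 0.75). Of 3 kept genes for further antagonists, 0 passed, with Apcdd1 at 0.25 and Wif1 at -0.23. The R-spondins, their Lgr receptors and the ligases Znrf3 and Rnf43, 9 genes that tune receptor turnover, had no kept probe.

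In the nucleus, beta-catenin itself (Ctnnb1) was at 0.14 by its brightest probe and at -0.20 and -0.08 by the dimmer ones. None of these passed, and the brightest was at 0.27 when DMSO replicate 2 was dropped. Tle6, a divergent relative of the Groucho corepressors known from the egg, had 7.62 and 7.63 on the ATRA arrays, against 6.79 and 6.81 on the DMSO arrays. It rose by 0.82 (SE 0.10, adjusted p = 2.4e-05) with a gap far beyond the spread of the replicates. It was the only 1 of 13 kept cofactor genes to pass, against 1.82% of all measured genes. Tle4, a Groucho corepressor, was lower by all 3 of its kept probes (-0.30, -0.41 and -0.27) and passed on none of them (adjusted p = 0.059, 0.058 and 0.39). Over the alternative settings the brightest ranged from -0.34 to -0.26. Pygo1, a beta-catenin cofactor, was at 0.43 (adjusted p = 0.20).

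Of 8 kept genes known as targets of beta-catenin, Cdx1 rose and Id2 and Evx1 fell, against 1.46% of all measured genes that rose and 0.363% that fell. Cdx1, a caudal homeobox gene that carries response elements for both WNT and retinoic acid, had 6.43 and 6.74 with ATRA, against 5.51 and 5.92 with DMSO (change 0.88, adjusted p = 0.00083), and its dimmer probe rose by 1.58 (adjusted p = 6.7e-08). Id2, which blocks DNA binding by helix-loop-helix factors, fell by 0.91 (adjusted p = 1.5e-05) by its brightest probe, and its other probes did not pass. Evx1, a homeobox gene of the streak, had 4.87 and 5.07 with ATRA, against 5.64 and 5.63 with DMSO, and fell by 0.66 (adjusted p = 0.024). Fst and Cdx2 were at -0.50 and 0.30 without passing. Of the 7 pluripotency genes known to be repressed by Tcf7l1, 0 passed by their brightest probe; Tbx3 was higher at 0.29 (adjusted p = 0.10), with a dimmer probe that rose by 0.36 (adjusted p = 0.030), Nanog was at 0.20 and Nr5a2 at -0.22. Csnk1e and Porcn missed the threshold when either ATRA array was left out (adjusted p = 0.26 in both cases for Csnk1e, and 0.081 and 0.11 for Porcn), and Evx1 when ATRA replicate 1 was (0.34) or when dim probes were not filtered (0.084). With no intensity trend Cdx1, Csnk1e, Evx1 and Porcn did not pass (adjusted p = 0.090, 0.24, 0.067 and 0.16), while Tle6 and Id2 did.

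**Figure D3:**
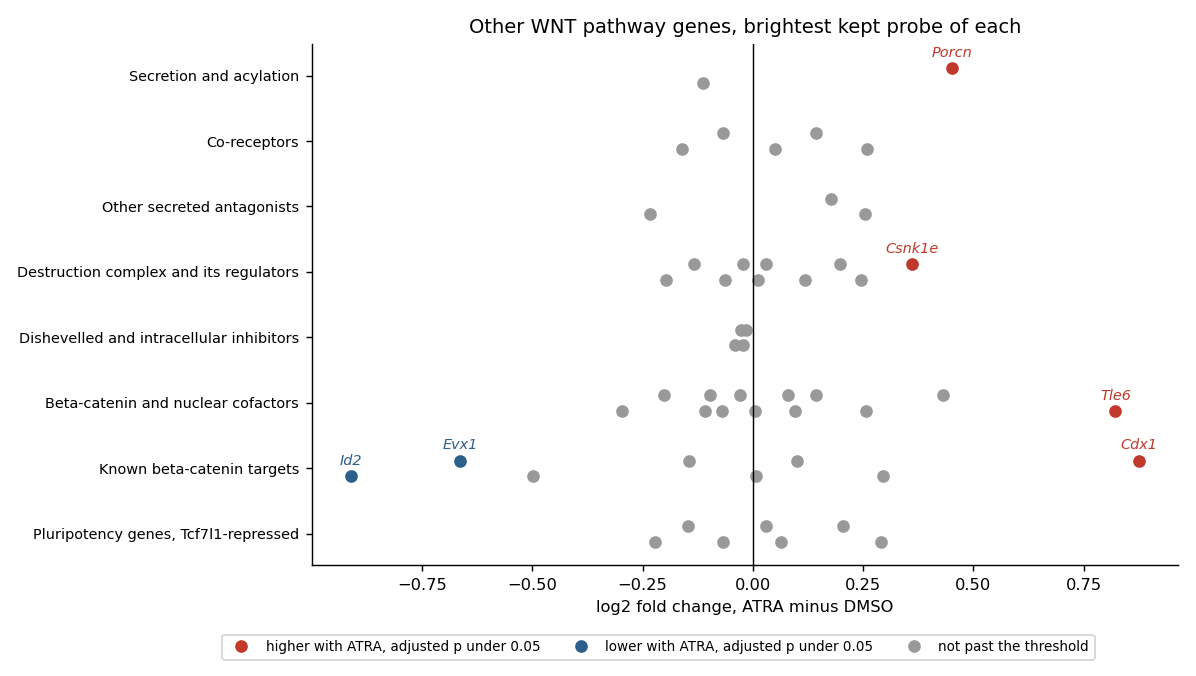
Log2 fold change, ATRA minus DMSO (horizontal axis), of the brightest kept probe of 52 other WNT pathway genes, 1 point a gene, in 8 groups by role. Of the 6 coloured genes, Porcn, Csnk1e, Tle6 and Cdx1 were higher with ATRA, and Id2 and Evx1 lower.

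The calls on the members rested on few arrays, as the plot of changes by setting shows. In each of the 4 fits that left out 1 array, a group was left with 1 array. Without ATRA replicate 1 the calls on all members were lost, and without ATRA replicate 2 those on all but Fzd7. Fits without a DMSO array called more probes over all than the full fit, so a pass in them says less. Signs of the 5 members that passed did not change in any of the 4 fits in which the probe was kept.

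**Figure D4:**
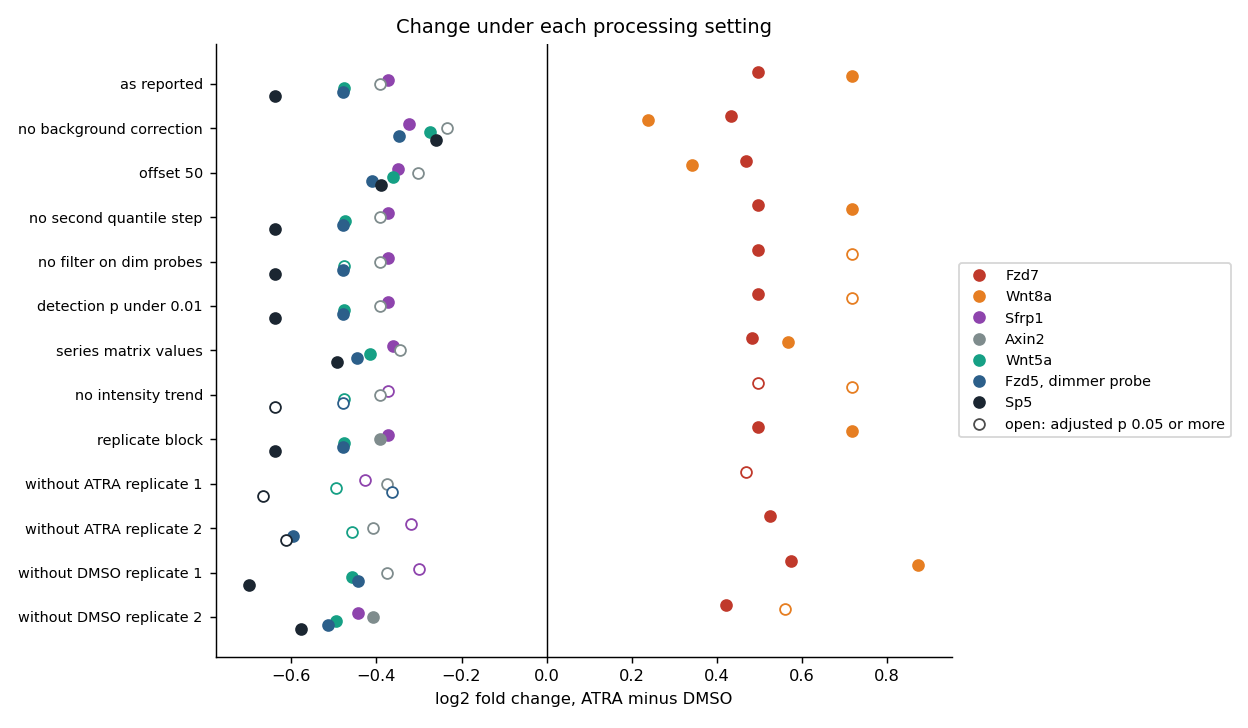
Log2 fold change, ATRA minus DMSO (horizontal axis), of the 5 WNT members that passed, of Axin2 and of the dimmer Fzd5 probe, as reported and under each alternative (rows); filled points have an adjusted p under 0.05. Directions hold in every row. Wnt8a points are fitted against undetected DMSO values; Wnt8a has no point in the rows without an ATRA array, and no filled point is left without ATRA replicate 1 or with no intensity trend.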

How the data were processed

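E14 RNA was profiled on 4 single-colour Illumina bead arrays, 2 per group. GenomeStudio made the values, per the submitters' processing notes. The authors deposited linear intensity values and a detection p-value per probe. Sorted by size, the intensities of the 4 arrays differ by at most 0.228, which means quantile normalization before deposit, and a change shared by most probes cannot be seen. Subtracting 93.5 from them gives the values of the deposited series matrix.

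From these, limma 3.58.1 (R 4.3.3) corrected background with neqc (normexp, offset 16, quantile, log2). The offset shrinks log2 fold changes, most of all for dim probes. Probes with detection p under 0.05 on at least 2 of 4 arrays were kept (19112 of 45281), and the groups were contrasted with lmFit and eBayes(trend). SEs and 95% intervals are moderated by that fit, which draws the variance of each probe toward that of probes of like intensity. Platform symbols were updated through Entrez identifiers to RefSeq (GRCm38.p6): 34885 probes had 1 symbol, 18 several and 10378 none. Where neither array of a group detected a probe, its fold is a bound: the brighter group's mean over a mean of, on every array of the dimmer group, its value or the lowest detected one, whichever is higher. The number of arrays limits the precision; no label says replicates were separate cultures, so p-values reflect the spread among these arrays alone, possibly technical spread. An exact permutation test of 2 against 2 cannot go below p = 0.333 and was not used. Deviations of same-numbered arrays from their group means had r = -0.00276 across kept probes. With 2 pairs this can neither show nor exclude a pairing.

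Data were simulated for the same 19112 probes with independent normal noise and variances drawn from the fitted model. In them the fit recovered 41 of 100 probes changed by 0.5 and 97 of 100 changed by 1, with 2 false calls among 140. Such data obey the model being fitted, so these numbers are not error rates for the real arrays. Members and lists were chosen with earlier results of these data known. Every kept member is named, with values per array for those that passed, the brightest of each class and up to 3 per class with the largest change and no overlap; other pathway genes are named where they passed or had the 2 largest changes of their role, with Cyp26a1 as a check of the treatment and Pou5f1, Nanog and Otx2 of the cells. Ctnnb1, Tle4, Fst, Cdx2, Zfp42, Sox2, the primitive endoderm markers and the dimmer probes of named genes were added after their values were seen. Promoter sequences are RefSeq's; 32 of 47 members matched. Alternatives were other background settings, filters, value sources, no intensity trend, a replicate block, any kept probe for a gene, and leaving out each array.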

Additional observations from a re-analysis of the deposited data

How the results depend on the processing

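Other background settings, leaving out the second quantile step and the series matrix left 5 members past the threshold. With a stricter filter there were 4, with no filter on dim probes 3, and with no intensity trend 0. In the fit with no trend, 10 of 22 members had an unadjusted limma p under 0.05 by their brightest kept probe. Counted by probe and not by gene, 2036 of all 19112 kept probes had such a p. Leaving out 1 array gave 0 to 6 members, 3 to 10 other pathway genes and 133 to 956 probes. With no trend, 2 other pathway genes and 74 probes passed, against 6 and 302. With the replicate number as a block, 492 probes, 6 members (Axin2 joined, adjusted p = 0.041) and 8 other pathway genes passed; the arrays share only a number, and with 2 pairs the data cannot show a pairing. When any kept probe counted, 6 members passed (Fzd5 joined) and 7 other pathway genes. Of 58 genes and probes followed through the settings, none turned sign where all arrays were kept. Leaving out an array turned signs for small changes: Wnt6 ranged from -0.248 to 0.0481, Fzd10 from -0.191 to 0.0403, Fzd3 from -0.240 to 0.0357, Fzd4 from -0.081 to 0.276, Sfrp2 from -0.0634 to 0.144, Tcf7l1 from -0.153 to 0.0801, Tcf7l2 from -0.0589 to 0.0944, Dvl1 from -0.0941 to 0.0134, Dvl2 from -0.101 to 0.0447, Sox7 from -0.0151 to 0.246 and Pou5f1 from -0.0549 to 0.126. The size of a change in a dim gene depends on the background setting: Wnt5a was at -0.27 and Sp5 at -0.26 with no correction. Of members below the detection limit, a fall could not be measured.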

Other observations

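A pair of neighbouring gene groups, listed after the data had been seen, was read in the same fit. Of 14 genes of planar cell polarity, the branch through which Wnt5a is best known to act, 10 were kept. By limma 0 passed, with 2 at an unadjusted p under 0.05 by their brightest kept probe. Counted by probe and not by gene, 2211 of all 19112 kept probes had such a p. Prickle2, a cytoplasmic polarity protein, was at -0.50 by its brighter probe (adjusted p = 0.20) and at -0.07 by the other (adjusted p = 0.93), and Celsr2, a polarity cadherin, at -0.31 (adjusted p = 0.42). The median of the 10 was -0.13, beside -0.0043 for all measured genes. Among the 10, Daam2 (change -0.24) was kept only through the DMSO arrays, so the filter favoured a difference there. Both kept Prickle2 probes had 1 of 2 ATRA values detected. Vangl1, Prickle3 and Prickle4 were not analysed here.

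Of 12 genes for cell-surface proteoglycans and their sulfatases, which hold or release WNT ligands outside the cell, 11 were kept and 0 passed by limma, with 0 at an unadjusted p under 0.05. Their changes ran from -0.17 in Sdc1, a syndecan, to 0.17 in Gpc4, a glypican.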
